A study of Mus musculus with 6 samples.

Results

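Transcripts of the histone variant H3.3 and of the proteins that carry it were examined in mouse embryonic stem (ES) cells with and without Morc3. The genes were the rows of 10 listed symbols among the 24054 gene rows of the count tables, read on the sense strand. They comprise Daxx and Atrx, the H3.3 genes H3f3a and H3f3b, the HIRA complex genes Hira, Ubn1, Ubn2 and Cabin1, and the H3 chaperone genes Asf1a and Chaf1a. All 10 symbols were found, and all 10 passed the filter on low counts.

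Histone H3.3 differs from the canonical H3 proteins at a few residues and is made and deposited throughout the cell cycle, while canonical H3 is made mainly during DNA replication. Its deposition follows separate routes. The DAXX and ATRX proteins place H3.3 at telomeres, pericentromeric repeats and endogenous retroviruses, and the HIRA complex places it at active genes, promoters and gaps in the nucleosome array. DAXX is the H3.3-specific chaperone of the first route and ATRX is its chromatin remodelling partner.

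The series was designed to compare Morc3 knock-out (ko) with wild-type ES cells. The study asked about Morc3, an ATPase of the MORC family, in the silencing of endogenous retroviruses. It then asked about Morc3 as a factor of H3.3 deposition by DAXX. RNA-seq libraries were made from 3 ko clones, here ko clone 1, 2 and 3, and from 3 cultures of the wild-type line wt26, here p42, p43 and p56 after their titles. The sources used here do not explain the letter p. Each ko line was a single clone, derived from wt26 with Cas9 under a short puromycin selection, so that each ko library stands for 1 clone. All 6 were feeder-independent cells kept on gelatin with serum and LIF, and no other allele or agent was stated.

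The 2 H3.3 genes encode the same protein with different codons, which decides whether short reads can tell them apart. Their coding sequences, read from the GENCODE M21 annotation of GRCm38, each had 408 bases. H3f3a and H3f3b differed at 95 of these bases, of which 81 were the last base of a codon, and at 0 of the 136 residues counted with the start methionine. The longest stretch they shared was 23 bases, shorter than a 50 base read. Against Hist1h3a, the only gene for canonical H3 compared here, H3f3a differed at 94 bases and H3f3b at 80, and both differed at the same 5 residues. Counted from 1 after the start methionine, with the H3.3 residue first, these were S31A, A87S, I89V, G90M and S96C. The stretches that hold the first of these residues and the group of 3 around residue 89 are shown 5′ to 3′ on the coding strand, with the positions that differ among the 3 genes in capitals. The first block covers bases 85 to 114 and the second bases 250 to 285 of the coding sequence, counted from the start codon.
H3f3a: agTgcGccCTcTacTggAggGgtgaagaaA
H3f3b: agCgcGccCTcTacCggCggGgtgaagaaG
Hist1h3a: agCgcCccGGcCacCggCggCgtgaagaaG
H3f3a: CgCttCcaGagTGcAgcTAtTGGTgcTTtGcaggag
H3f3b: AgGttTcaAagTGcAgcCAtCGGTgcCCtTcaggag
Hist1h3a: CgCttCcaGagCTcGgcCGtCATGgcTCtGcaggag
In the second block, H3f3a and H3f3b differed in letters but read the same amino acids, and Hist1h3a carried the canonical residues. The counts of the 2 H3.3 genes could therefore be read separately over the coding sequence. Over the whole longest transcript, 16.4% of the 50 base windows of H3f3a and 8.40% of those of H3f3b also occurred in annotated genes elsewhere in the genome, H3f3c among them for H3f3a. STAR leaves reads that map to several places out of its gene counts, so the counts of both genes rest on the remaining windows.

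Sense-strand gene counts lay between 10740618 and 14123131 per library, and 12222 genes were tested. The median SE of a log2 fold change was 0.075 for the 10 genes and 0.11 over all tested genes. Morc3 itself, the check of the labels, reached 77.8, 138 and 135 CPM (counts scaled by TMM-corrected library size) in ko clones 1 to 3 and 277, 272 and 302 CPM in p42, p43 and p56. Its log2 fold change was -1.28 (SE 0.16, adjusted p = 8.4e-04 by edgeR's quasi-likelihood test with Benjamini-Hochberg adjustment). The transcript was thus lower but not absent in the ko clones. A robust fit in edgeR did not call it (adjusted p = 0.018), and the other 14 alternatives did. The 6 ES cell markers Pou5f1, Sox2, Nanog, Zfp42, Esrrb and Klf4 summed to 3935 to 4049 CPM in ko and 3717 to 3870 CPM in wild type, and none was called. The 7 markers of fibroblasts and differentiated cells summed to 6.27 to 6.65 CPM in ko and 10.5 to 11.3 CPM in wild type, with none at 0 in all libraries. Only 2 of the 7, Thy1 and Gata4, had enough counts to be tested. Thy1 made up most of the sums, at 4.80 ± 0.25 CPM in ko and 8.71 ± 0.47 CPM in wild type (SD, n = 3). It was called as lower (adjusted p = 0.0064 by edgeR). Gata4 was not called (adjusted p = 0.39 by edgeR), and Col1a1, Sox17 and T had higher means in ko. The part of these differences in the results was not tested. Wild-type p56 stood apart on chromosome 14, where its median gene lay 0.24 above the wild-type mean on the log2 scale that of p42 and p43 each 0.12 below, and that of the ko clones at -0.20 to -0.22. None of the 10 genes lies on that chromosome.

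None of the 10 genes was called between ko and wild type at an adjusted p under 0.01 by edgeR's quasi-likelihood test. The study applied this threshold with DESeq2, and a DESeq2 fit made here is given below. Over all tested genes, 156 were called by edgeR, which is 1.28%. At an adjusted p under 0.05, 1 of the 10 was past the threshold, Atrx, beside 331 genes or 2.71% of all tested. Likewise, 1 of the 10 had ko libraries that did not overlap the wild-type libraries in CPM, again Atrx, beside 19.9% of all tested genes. An unadjusted p under 0.05 was reached by 1 of the 10 and by 1746 of the 12222 tested genes. DESeq2, the method of the study, run here on the same counts, called 1 of the 10, Atrx (adjusted p = 0.0079), beside 254 of the 24054 gene rows. Only 17522 of these rows had a count in any library, so this share is not comparable with those over the 12222 tested genes. In limma-voom, 0 of the 10 were called, beside 149 of 12222 genes. The median log2 fold change of the 10 genes was 0.02, against -0.00010 over all tested genes, with 6 fitted above 0 and 4 below. 9 of the 10 were fitted within 0.1 of 0 on the log2 scale, compared with 48.7% of all tested genes. This comparison was not matched for the SE, whose median was 0.075 for the 10 genes and 0.11 over all tested genes. Of the 6 ES cell markers, with a median SE of 0.059, 5 were also fitted within 0.1.

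**Figure D1:**
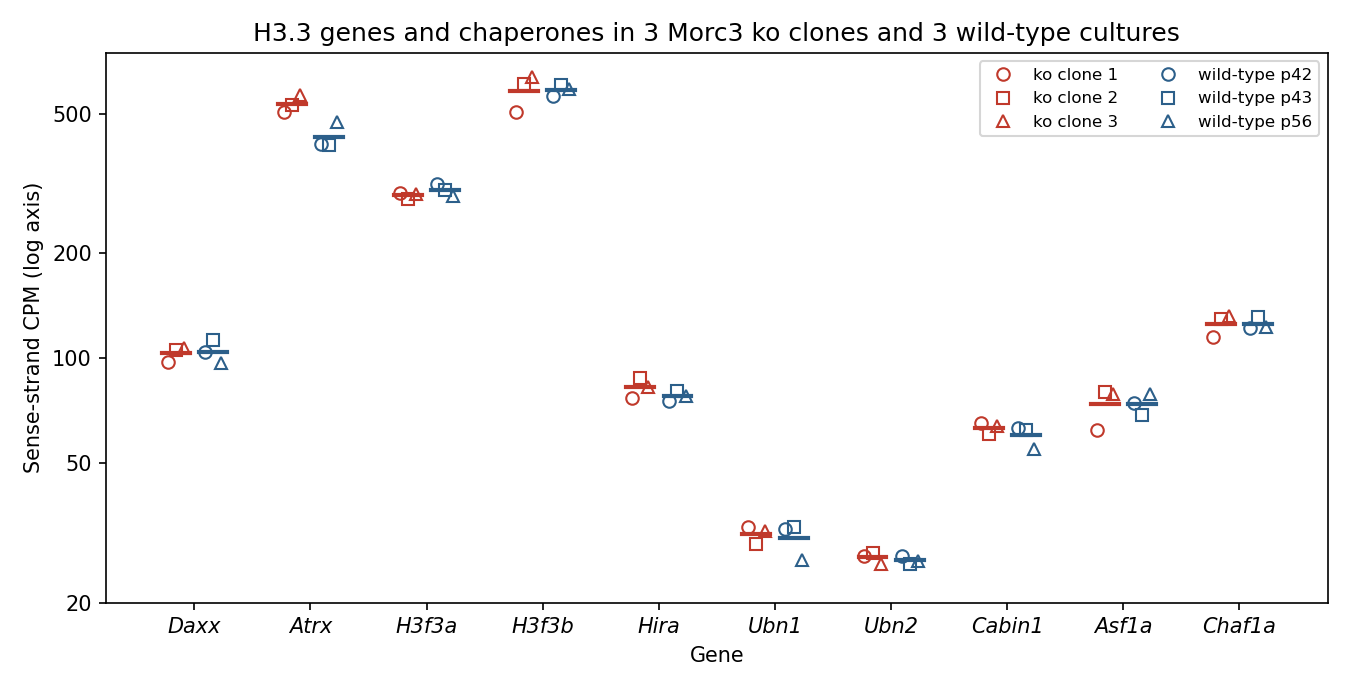
Sense-strand CPM on a log axis of the 10 genes in each library, with ko clones in red, wild-type cultures in blue and horizontal bars at the group means (n = 3). Atrx is the gene whose 3 ko values, 504 to 563 CPM, all lie above its 3 wild-type values, 407 to 474 CPM.

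Atrx (ENSMUSG00000031229, GRCm38 chromosome X, 105797615 to 105929403, minus strand) encodes a SNF2-family ATPase whose ADD domain reads histone H3 tails. It reached 504, 529 and 563 CPM in ko clones 1 to 3 and 409, 407 and 474 CPM in p42, p43 and p56. The ko libraries were all above the wild-type libraries, and p56 was the nearest of the latter. The mean was 532 ± 30.0 CPM in ko and 430 ± 38.2 CPM in wild type (SD, n = 3). The log2 fold change was 0.31 (SE 0.07), a fold of 1.24, with a 95% interval from 0.15 to 0.47 and adjusted p = 0.047 in edgeR's quasi-likelihood test. In such bulk samples, more cells with the transcript and more transcript per cell cannot be told apart.

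The size and the call of the Atrx difference depended on p56. On the log2 scale, Atrx was 0.22 higher in p56 than in the mean of p42 and p43. The ko mean was 0.38 above the mean of p42 and p43, but 0.16 above p56. Without p56, the log2 fold change was 0.38 and the adjusted p was 3.2e-04 by edgeR, which passes the threshold of 0.01. DESeq2 on all 6 libraries also called Atrx, with an adjusted p of 0.0079. In contrast, edgeR's adjusted p was 0.056 without ko clone 1, 0.18 without ko clone 2, 0.25 without ko clone 3, 0.17 without p42 and 0.15 without p43, and 0.051 with a filter of at least 1 CPM in 3 libraries, so that Atrx no longer passed 0.05. Calls at 0.01 over all genes moved in the same way, from 156 with all 6 libraries to 385 without p56 and 72 to 117 without any other library. Over the 15 alternatives run, the fitted value of Atrx stayed between 0.27 and 0.38.

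Daxx (ENSMUSG00000002307, chromosome 17, 33909414 to 33915590, plus strand) encodes the H3.3 chaperone itself. It reached 97.6, 105 and 107 CPM in ko clones 1 to 3 and 104, 113 and 96.9 CPM in p42, p43 and p56. Both the lowest and the highest of the 6 values were wild-type cultures, so the ko values lay within the wild-type range. Daxx was fitted at -0.02 on the log2 scale (SE 0.07, adjusted p = 0.95 by edgeR). Its 95% interval ran from -0.18 to 0.14, that is from a change of -11.5% to one of 10.5% in ko.

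The ratio of Atrx to Daxx within a library does not depend on library scaling. It was 5.16, 5.03 and 5.26 in ko clones 1 to 3 and 3.93, 3.62 and 4.89 in p42, p43 and p56, as sense counts of one gene over the other. The ko clones were all above the cultures, with p56 nearest. The difference of 0.32 on the log2 scale gave p = 0.1 by an exact two-sided permutation test over the 20 splits, which is the smallest p that 3 against 3 libraries allow, and an adjusted p of 0.70 over the 7 gene pairs compared by the same exact permutation test. With so few libraries the test could not reach 0.05.

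**Figure D2:**
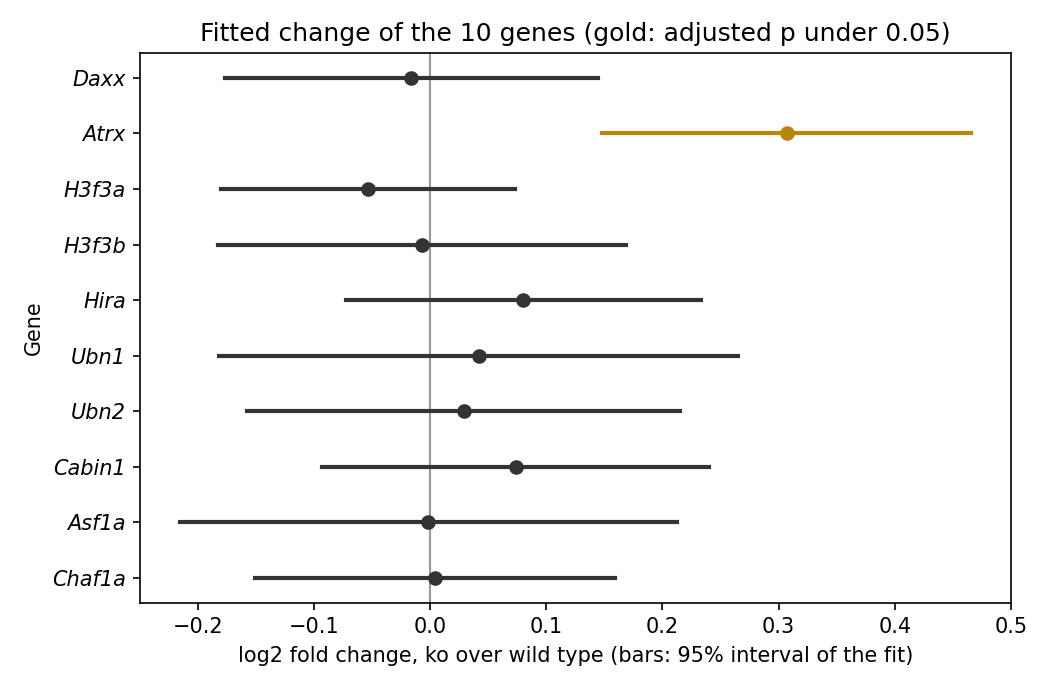
Fitted log2 fold change of ko over wild type for the 10 genes (points) with its 95% interval (bars), Atrx in gold. The interval of Atrx, 0.15 to 0.47, lies above 0, and the intervals of the other 9 genes include 0.

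The genes beside Atrx on chromosome X were compared with it. The 3 nearest tested genes at higher coordinates, Magt1, Cox7b and Atp7a, begin 38.7, 86.3 and 97.9 kb from its end and had log2 fold changes of -0.03, 0.06 and -0.08. The 3 nearest at lower coordinates, Magee1, Pbdc1 and 5530601H04Rik, lie 674 to 718 kb away and had values of -0.31, 0.09 and 0.04. Magee1 was scarce, at 1.51 CPM in ko and 1.87 CPM in wild type, and the SE of its value was 0.28. None of the 6 was called, and their adjusted p by edgeR lay between 0.69 and 0.94. Over the 418 tested genes of chromosome X the median was -0.01.

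The genes whose levels followed those of Atrx most closely were Gpbp1, Ttc30a1 and Suz12, measured as the root mean square difference of centred log2 CPM over the 6 libraries. These differences were the 3 smallest by choice, at 0.026, 0.031 and 0.033, and the median over the 12221 other genes was 0.22. Since the genes were picked for likeness over the same 6 libraries, fold changes and calls like those of Atrx follow from the choice. Suz12, which encodes a subunit of the Polycomb repressive complex PRC2, had a log2 fold change of 0.36 with an adjusted p of 0.012 by edgeR. Gpbp1 had 0.32 with an adjusted p of 0.025, and Ttc30a1, which encodes a protein of intraflagellar transport, had 0.34 with an adjusted p of 0.25. None of these passed 0.01 in this fit. Among the 15 alternatives, Suz12 passed it in 5, Gpbp1 in 3 and Ttc30a1 in 0, and both Suz12 and Gpbp1 did so by DESeq2 and without p56. Without ko clone 3, the adjusted p by edgeR was 0.093 for Suz12 and 0.16 for Gpbp1. For Daxx, the nearest genes were Trmt61a, Basp1 and Pus7, with differences of 0.022, 0.027 and 0.028 against a median of 0.15. The levels of all these genes come from the same 6 libraries.

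Neither gene for H3.3 itself was called between ko and wild type. H3f3a (ENSMUSG00000060743, chromosome 1, 180800832 to 180813943, minus strand) reached 297, 285 and 294 CPM in ko clones 1 to 3 and 315, 302 and 291 CPM in p42, p43 and p56. The ranges overlapped, with p42 highest and ko clone 2 lowest. Its log2 fold change was -0.05 (SE 0.06, adjusted p = 0.75 by edgeR), with a 95% interval of -0.18 to 0.07, which was the narrowest of the 10 genes.

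H3f3b (ENSMUSG00000016559, chromosome 11, 116021912 to 116027962, minus strand) reached 504, 606 and 635 CPM in ko clones 1 to 3 and 560, 603 and 590 CPM in p42, p43 and p56. Ko clone 1 was the lowest and ko clone 3 the highest of the 6, so that the ko clones spanned the wild-type cultures. The SD between ko clones was 68.8 CPM around a mean of 582, and that between wild-type cultures was 22.1 CPM around a mean of 584. The log2 fold change was -0.01 (SE 0.08, adjusted p = 0.98 by edgeR), with a 95% interval of -0.18 to 0.17.

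Per exon length, H3f3b was the more abundant of the H3.3 genes. It stood at 195 ± 23.1 CPM per kb in ko and 196 ± 7.41 in wild type, and H3f3a at 83.2 ± 1.80 in ko and 86.3 ± 3.42 in wild type (SD, n = 3). H3f3a made up 33.3%, 28.5% and 28.2% of the summed per-length level of both genes in ko clones 1 to 3 and 32.3%, 29.8% and 29.5% in p42, p43 and p56. The ranges overlapped, with group means of 30.0% ± 2.88 in ko and 30.6% ± 1.52 in wild type. The within-library ratio of H3f3a to H3f3b counts differed by -0.04 on the log2 scale between the groups (p = 0.60, exact two-sided permutation test, adjusted p = 0.98).

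**Figure D3:**
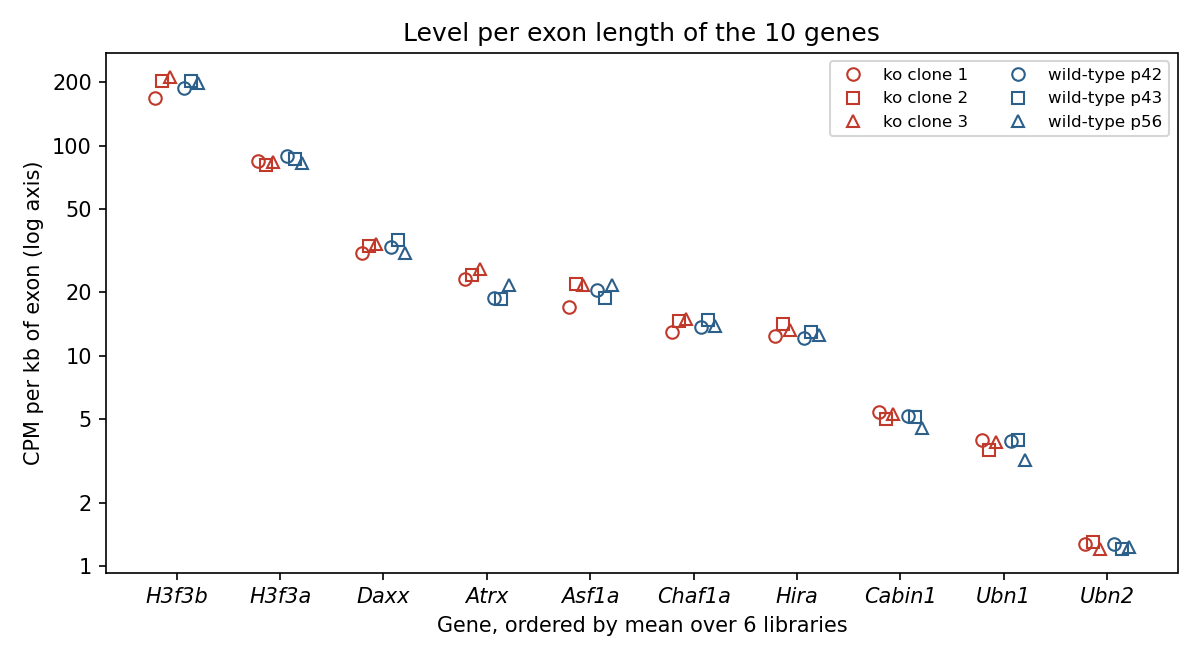
CPM per kb of exon on a log axis for the 10 genes, ordered by their mean over the 6 libraries, with ko clones in red and wild-type cultures in blue. The order runs from H3f3b, with a mean of 196, to Ubn2, with a mean of 1.24.

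The 4 HIRA complex genes were fitted slightly above 0, between 0.03 and 0.08 on the log2 scale, and none was called. Hira (ENSMUSG00000022702, chromosome 16, 18877037 to 18970309, plus strand), which encodes the scaffold and H3.3 chaperone of the complex, reached 77.1, 87.6 and 82.8 CPM in ko clones 1 to 3 and 75.6, 80.4 and 78.1 CPM in p42, p43 and p56. Ko clones 2 and 3 were above all wild-type cultures and ko clone 1 was within their range. Its fitted change was 0.08 on the log2 scale (SE 0.07, adjusted p = 0.69 by edgeR), with a 95% interval of -0.07 to 0.23.

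Cabin1 (ENSMUSG00000020196, chromosome 10, 75646112 to 75764341, minus strand), which encodes the calcineurin-binding subunit, reached 65.4, 60.6 and 63.8 CPM in ko clones 1 to 3 and 63.0, 62.2 and 55.0 CPM in p42, p43 and p56. The groups overlapped, with p56 lowest. Cabin1 was fitted at 0.07 on the log2 scale (SE 0.08, adjusted p = 0.73 by edgeR), with a 95% interval of -0.09 to 0.24.

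Ubn1 and Ubn2 encode the ubinuclein subunits, which contact the residues that set H3.3 apart from canonical H3. Ubn1 (ENSMUSG00000039473, chromosome 16, 5050057 to 5086289, plus strand) reached 33.0, 29.4 and 32.1 CPM in ko clones 1 to 3 and 32.4, 32.8 and 26.4 CPM in p42, p43 and p56. Ubn2 (ENSMUSG00000038538, chromosome 6, 38433950 to 38524825, plus strand) reached 27.3, 27.8 and 25.8 CPM in ko clones 1 to 3 and 27.2, 25.8 and 26.3 CPM in p42, p43 and p56. The groups overlapped for both genes. P56 was the lowest of the 6 libraries for Ubn1, and the log2 fold change of Ubn1 was 0.04 with a 95% interval of -0.18 to 0.27 (adjusted p = 0.90 by edgeR). That of Ubn2 was 0.03 with an interval of -0.16 to 0.22 (adjusted p = 0.92 by edgeR). These were the least counted of the 10 genes, with 333 to 469 and 284 to 376 sense counts per library.

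Ratios within the complex were compared as for Atrx and Daxx. Hira over Cabin1 counts was 1.18, 1.45 and 1.30 in ko clones 1 to 3 and 1.20, 1.29 and 1.42 in p42, p43 and p56. Hira over Ubn1 was 2.34, 2.98 and 2.58 in ko and 2.33, 2.45 and 2.96 in wild type, and Ubn1 over Ubn2 was 1.21, 1.06 and 1.25 in ko and 1.19, 1.27 and 1.01 in wild type. The groups overlapped for all 3 pairs, and the differences were 0.002, 0.03 and 0.02 on the log2 scale. The exact two-sided permutation test gave p = 1, 0.70 and 0.90.

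Asf1a (ENSMUSG00000019857, chromosome 10, 53596757 to 53609225, plus strand) encodes a chaperone that hands newly made H3-H4 to HIRA or to CAF-1. It reached 62.2, 80.2 and 79.1 CPM in ko clones 1 to 3 and 74.4, 68.8 and 78.8 CPM in p42, p43 and p56. Ko clone 1 was the lowest of the 6 and the other ko clones were the highest, and the log2 fold change was -0.00 (SE 0.10, adjusted p = 1.00 by edgeR) with a 95% interval of -0.22 to 0.21. The SD was 10.1 CPM in ko and 5.05 CPM in wild type. Without ko clone 1 the log2 fold change was 0.11, and the adjusted p 0.52 by edgeR.

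Chaf1a (ENSMUSG00000002835, chromosome 17, 56040439 to 56072289, plus strand) encodes the large subunit of CAF-1, the chaperone that deposits canonical H3 behind the replication fork. It reached 115, 129 and 132 CPM in ko clones 1 to 3 and 122, 131 and 122 CPM in p42, p43 and p56. The ko clones again spanned the wild-type cultures. Chaf1a was fitted at 0.00 on the log2 scale (SE 0.07, adjusted p = 0.99 by edgeR), with a 95% interval of -0.15 to 0.16.

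Both genes have a paralog or partner for comparison within the library. Asf1a over Asf1b counts was 1.32, 1.63 and 1.52 in ko clones 1 to 3 and 1.57, 1.39 and 1.68 in p42, p43 and p56. Chaf1a over Chaf1b, its partner subunit in CAF-1, was 1.28, 1.55 and 1.54 in ko clones 1 to 3 and 1.55, 1.63 and 1.53 in p42, p43 and p56. The groups overlapped for both pairs, with differences of -0.06 and -0.11 on the log2 scale (p = 0.60 and 0.40, exact two-sided permutation test). Chaf1b lies 7.83 kb beyond the end of Morc3 on chromosome 16. It reached 90.0, 83.6 and 85.7 CPM in ko clones 1 to 3 and 78.6, 80.4 and 80.1 CPM in p42, p43 and p56. The groups did not overlap, but its log2 fold change of 0.12 (SE 0.06) had an adjusted p of 0.45 by edgeR and was not called.

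**Figure D4:**
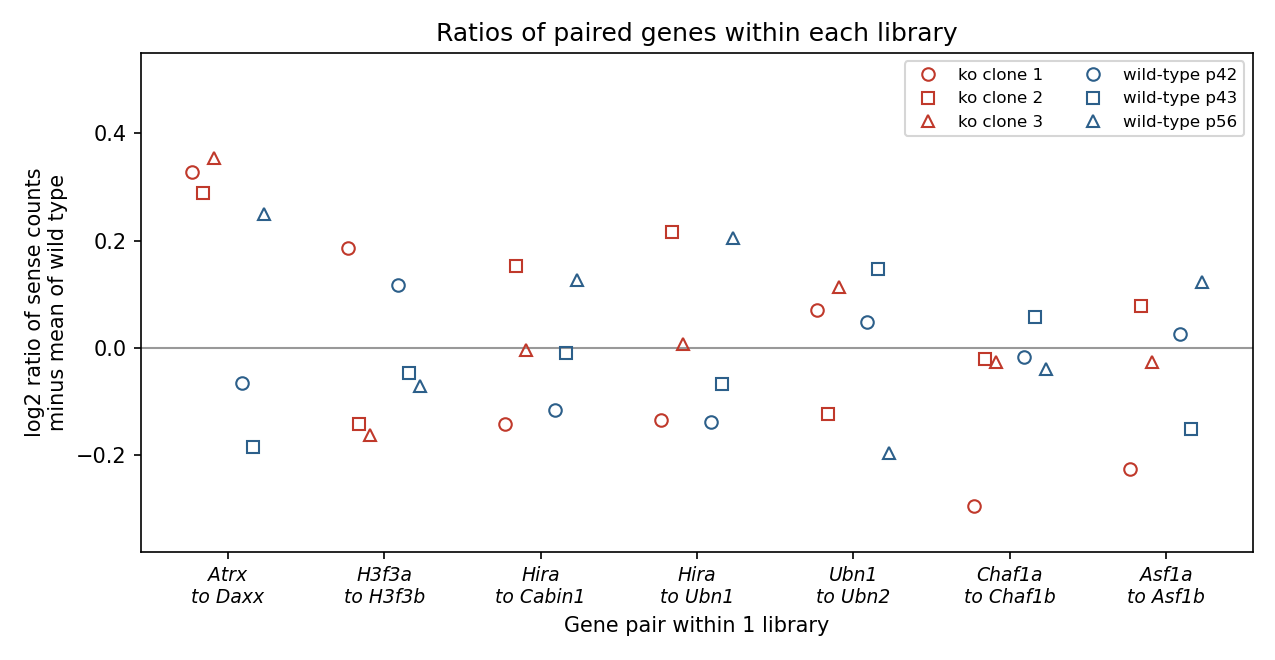
Log2 ratio of the sense counts of paired genes within each library, relative to the mean of the wild-type cultures, with ko clones in red and wild-type cultures in blue. Atrx to Daxx is the pair without overlap between the groups, with a mean difference of 0.32.

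Ko clone 1 was the lowest of the ko clones for 6 of the 10 genes, namely Daxx, Atrx, H3f3b, Hira, Asf1a and Chaf1a. Over all tested genes it was the lowest ko clone for 37.4%. P56 was the lowest wild-type culture for 4 of the 10, Daxx, H3f3a, Ubn1 and Cabin1, beside 41.0% of all tested genes. The spread between clones was largest for Asf1a and H3f3b, with an SD of 13.7% and 11.8% of the ko mean. Counting error alone gives 3.31% and 1.18% for these genes.

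By the mean over all 6 libraries, the order of levels per exon length after H3f3b and H3f3a was Daxx, Atrx, Asf1a, Chaf1a, Hira, Cabin1, Ubn1 and Ubn2. Daxx stood at a mean of 33.0 CPM per kb over the 6 libraries and Atrx at 22.1. Asf1a followed with 20.3, Chaf1a with 14.1 and Hira with 12.9. The HIRA partners were lower, with 5.07 for Cabin1, 3.75 for Ubn1 and 1.24 for Ubn2. The libraries of Atrx (18.7 to 25.9) and Asf1a (17.1 to 22.1) overlapped, and Atrx was above Asf1a in 4 of the 6, all 3 ko clones and p56. In wild type alone, the mean was 19.8 for Atrx and 20.3 for Asf1a. The ranges of Chaf1a (13.0 to 14.9) and Hira (12.2 to 14.1) also overlapped, but within each library Chaf1a was above Hira, in 6 of 6. With the longest transcript in place of all exons, Atrx (46.8) stood above Daxx (38.8) and Hira (19.0) above Chaf1a (16.3).

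Reads of the opposite strand were few at these genes. They made up 2.16% of both strands at Asf1a over all libraries, with an exact 95% binomial interval of 1.79% to 2.57% that covers counting error only. Asf1a shares exonic sequence with Mcm9 on the other strand. At Chaf1a, which overlaps Ubxn6 in the same way, the share was 0.567%, and at the other 8 genes it lay between 0.036% and 0.552%. At Hira, 64.4% of the 50 base windows of the longest transcript also belong to Gm28539, an annotated same-strand transcript over this locus that has no row of its own in the files. Windows found only in overlapping genes made up 65.8% at Asf1a, 47.0% at Chaf1a and 13.9% at H3f3a. The genes that share exonic sequence with these lie on the opposite strand. Ubn2 had 0.137% of its windows in an overlapping gene and 4.07% in genes elsewhere, and Chaf1a had 0.941% elsewhere. Daxx, Atrx, Ubn1 and Cabin1 had none in other genes.

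Among 20 other chaperones and carriers of H3-H4, all tested, none was called at an adjusted p under 0.01 or under 0.05 by edgeR. An unadjusted p under 0.05 was reached by 2, beside 1746 of all 12222 tested genes. DESeq2 and limma-voom called 0 as well. Of the 20 genes, 13 were fitted above 0 and 7 below, beside 6108 above and 6114 below over all tested genes. Their median log2 fold change was 0.06, and 4 did not overlap between the groups, beside 19.9% of all tested genes. The lowest adjusted p belonged to Ipo4, an importin that brings H3-H4 into the nucleus. It reached 109, 112 and 121 CPM in ko clones 1 to 3 and 126, 137 and 167 CPM in p42, p43 and p56. The wild-type cultures were all above the ko clones, with p56 highest, and the log2 fold change was -0.33 (SE 0.10, adjusted p = 0.12 by edgeR).

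Supt16, which encodes a subunit of the histone chaperone FACT, reached 833, 861 and 913 CPM in ko clones 1 to 3 and 919, 944 and 1212 CPM in p42, p43 and p56. P56 was again the highest, and the log2 fold change was -0.24 (SE 0.09, adjusted p = 0.26 by edgeR). Ipo4 and Supt16 both lie on chromosome 14, on which p56 stood apart, and the median log2 fold change over the 423 tested genes of that chromosome was also -0.24. Ssrp1, the other FACT subunit, had 0.05 (adjusted p = 0.81 by edgeR). Dnajc9, the other gene of the list on chromosome 14, had -0.18 (adjusted p = 0.51 by edgeR). Without p56, the log2 fold change was -0.20 for Ipo4, -0.10 for Supt16 and -0.04 for Dnajc9. The part of the chromosome in these values was not tested.

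Among 16 chromatin factors that act with H3.3, DAXX or ATRX, all tested, none was called at 0.01 by edgeR. An adjusted p under 0.05 was reached by 1, beside 2.71% of all tested genes. An unadjusted p under 0.05 was reached by 2, beside 1746 of all 12222. The median log2 fold change was 0.02, with 9 fitted above 0, 7 below and 5 without overlap between the groups, beside 19.9% of all tested genes. The gene past 0.05 was Pml, whose protein forms the nuclear bodies in which DAXX resides. It reached 49.0, 47.9 and 49.0 CPM in ko clones 1 to 3 and 36.1, 36.5 and 27.8 CPM in p42, p43 and p56. The ko clones were all above the wild-type cultures, with p56 lowest. The log2 fold change of Pml was 0.54 (SE 0.10, adjusted p = 0.015 by edgeR), with a 95% interval of 0.32 to 0.76. Pml passed 0.01 by DESeq2, without the filter on low counts and without p56, but did not pass 0.05 when a ko clone was left out (adjusted p = 0.060, 0.088 and 0.099 by edgeR without ko clone 1, 2 and 3).

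Suv39h1, which encodes an H3K9 methyltransferase, reached 22.0, 17.9 and 19.5 CPM in ko clones 1 to 3 and 25.2, 26.1 and 28.5 CPM in p42, p43 and p56. The groups did not overlap, with all ko clones below. The log2 fold change was -0.43 (SE 0.10, adjusted p = 0.055 by edgeR), and -0.21 (adjusted p = 0.33) from counts that ignore strand. Its adjusted p was under 0.05 in 5 of the 15 alternatives, with 0.029 the lowest, without the filter on low counts, and it was 0.033 without p56. The factors of heterochromatin on the DAXX route were not called. Setdb1, the H3K9 methyltransferase of endogenous retroviruses, had a log2 fold change of -0.07, its corepressor Trim28 0.12, the remodeller Smarcad1 0.05 and the HP1 genes Cbx1, Cbx3 and Cbx5 0.05, 0.12 and -0.05, with adjusted p between 0.44 and 0.82 by edgeR.

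Of 13 other H3 genes, 11 were tested and none was called by edgeR, DESeq2 or limma-voom. An unadjusted p under 0.05 was reached by 1, beside 1746 of all 12222 tested genes. The median log2 fold change was -0.08, with 9 of the 11 fitted below 0, beside 6114 of all 12222. Most belong to the multigene family of H3 genes that is expressed with DNA replication. How far reads were shared between the copies was not tested, so the 11 genes need not be separate observations. Hist2h3c1 and Hist2h3c2 had no counts in any library. Hist1h3f had the lowest adjusted p, with 269, 221 and 228 CPM in ko clones 1 to 3 and 270, 281 and 275 CPM in p42, p43 and p56. Ko clone 1 was just below the wild-type cultures and the other ko clones were lower, and the log2 fold change was -0.20 (SE 0.08, adjusted p = 0.23 by edgeR). Cenpa, the gene of the centromeric H3 variant, had a log2 fold change of 0.17 (SE 0.09, adjusted p = 0.42 by edgeR), and of 0.08 without p56.

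**Figure D5:**
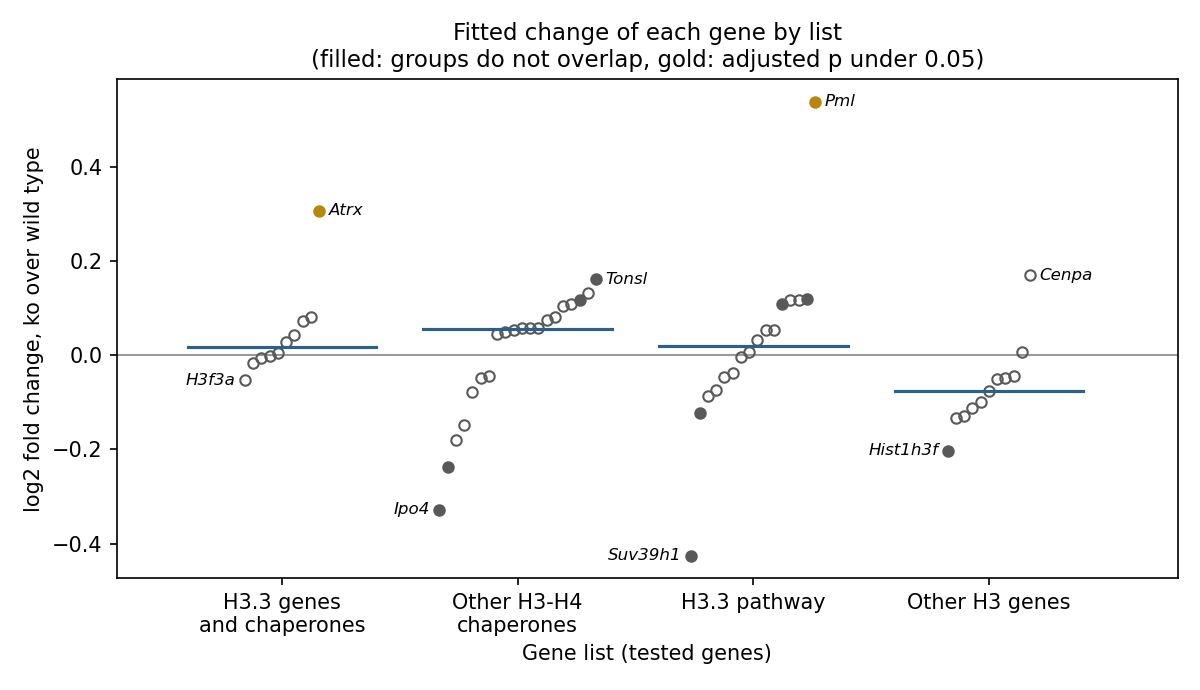
Fitted log2 fold change of ko over wild type for each tested gene of the 4 lists, with filled points for genes whose groups do not overlap, gold for an adjusted p under 0.05, blue lines at the list medians and a grey line at the median of all tested genes. The list medians lie between -0.08 and 0.06, and Atrx and Pml are the genes in gold.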

How the data were processed

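The authors depleted total RNA of ribosomal RNA, made strand-specific libraries, sequenced paired 50 bp reads and aligned them to mm10 with STAR. The deposited counts are raw reads per gene from 1 library each, without pooling, in columns for either strand and for no strand. The gene annotation used for counting is not given in the sources used here. The sense strand was the strand column with the larger total, and rows of unassigned reads were left out.

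Differential expression was tested with edgeR 4.0.16 in R 4.3.3 (quasi-likelihood, two-sided, group as the only term, TMM, filterByExpr with a minimum count of 10 and total of 15), and p-values were adjusted by Benjamini-Hochberg over all tested genes. SE is the size of the log2 fold change over the square root of F, and 95% intervals use the t quantile of the fit. The fit used a prior count of 0.125, and log CPM a prior count of 2. The deposited counts were divided by TMM-scaled library sizes for CPM, and by exon length from GENCODE M21 (GRCm38) for levels per kb. Counting error came to 1.18% to 5.51% for the 10 genes, below the SD between libraries in at least 1 group for each gene other than Ubn2. The study itself used DESeq2. Alternatives were DESeq2 1.42.0, limma-voom 3.58.1, a robust fit, other scalings and filters, counts that ignore strand, and each library left out. The edgeR script was tested on simulated data.

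The genes and lists were chosen with earlier results of these data known. Named genes were all 10 members, Morc3, the 2 genes of each list with the lowest adjusted p plus any called, the 3 nearest genes of Atrx on either side and the 3 genes most like Atrx and Daxx. Chaf1b, Asf1b, Ssrp1, Dnajc9, Setdb1, Trim28, Smarcad1 and the HP1 genes were added after their values were seen. The study calls the libraries of a group biological replicates, which are separate clones in ko and cultures of 1 line in wild type, and p-values measure the spread between these 6 samples.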

Additional observations from a re-analysis of the deposited data

How the results depend on the processing

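Across 150 fold changes of the 10 genes under 15 alternatives, 2 were called, both of Atrx. The count of called genes among the 10 was thus 1 by DESeq2 and 0 to 1 over the libraries left out, with 1 when p56 was left out. That of the H3.3 pathway list, where Pml was the gene, was 1 by DESeq2, 1 without the filter on low counts and 0 to 1 over the libraries left out. Over all genes, 254 of 24054 gene rows, rows without counts included, were called by DESeq2 and 286 of 17522 tested genes without the filter. Over the libraries left out, 72 to 385 of 12286 to 12520 tested genes were called, with the most calls without p56. Of the 150 log2 fold changes, 17 changed sign, in 5 genes whose values lie near 0, and the largest of these was 0.11 in size. The cause was not tested. Over the libraries left out, the ranges were -0.066 to 0.041 for Daxx, -0.071 to 0.090 for H3f3b, -0.051 to 0.097 for Ubn1, -0.064 to 0.11 for Asf1a, -0.030 to 0.066 for Chaf1a, -0.12 to 0.015 for Setdb1 and -0.039 to 0.11 for 5530601H04Rik. Asf1a was 0.0028 by DESeq2, and Chaf1a was -0.011 with upper-quartile scaling, -0.019 with library size only and -0.00049 without the filter. For the differences of within-library log2 ratios, the ranges were -0.15 to 0.022 for H3f3a to H3f3b, -0.073 to 0.075 for Hira to Cabin1, -0.064 to 0.13 for Hira to Ubn1, -0.077 to 0.094 for Ubn1 to Ubn2 and -0.13 to 0.026 for Asf1a to Asf1b, and Hira to Cabin1 was -0.0032 with counts that ignore strand. The lowest count of any of the 10 genes in a library was 284. Thy1 lost its call when any library other than p56 was left out (highest adjusted p 0.058 by edgeR). A paired fit was not made, since clone and culture labels share no replicate number.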
